A study of Rattus norvegicus with 4 samples.

Results

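Among the genes on a whole-genome rat array, 78 genes with 103 probes encode heterotrimeric G protein subunits, regulators of G protein signalling (RGS), adenylyl cyclases or cyclic nucleotide phosphodiesterases. They were chosen by symbol alone (Gna, Gnb and Gng subunits, numbered Rgs, Adcy and Pde genes), out of 12324 named genes and 33849 gene probes. The choice also took in Rgs7bp, an anchor of RGS7 that is no RGS protein, and Pde4dip, a centrosomal and Golgi protein named for binding PDE4D. It took in Pde6d as well, a prenyl-binding protein. These genes stay in the counts of the families that their symbols name. Of 92 protein-coding rat genes that the rule matches, 14 had no probe named here, among them Adcy1, Adcy9, Gna13, Rgs16 and Rgs20. Expression had been measured in crista ampullaris of the rat, where a semicircular canal senses head rotation. Laser capture first took the superficial layer (HC layer), with type I and type II hair cells, and the cytoplasm of supporting cells that lies between them. A second pass took the supporting cell bodies on the basal lamina below (SC layer). Each layer was measured on 2 single-colour arrays, and the labels used here give no strain, age, sex or number of animals, so the p-values below reflect just the spread among these samples, and that spread may be technical.

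A heterotrimeric G protein couples a membrane receptor to its effectors. The alpha subunit binds GTP on activation and separates from the beta-gamma dimer, and both then act on enzymes and channels. RGS proteins speed the hydrolysis of GTP by the alpha subunit and so end the signal. Adenylyl cyclases make cAMP under control of alpha and beta-gamma subunits, and phosphodiesterases break down cAMP and cGMP. In hair cells the inhibitory alpha subunits are also known for a role outside receptor signalling, at the apical surface, where they help to place and shape the hair bundle.

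The arrays detected 15420 to 16511 of the gene probes in the HC layer and 13430 to 13474 in the SC layer. Of all tested genes 28.2% were called higher in the SC layer and 37.2% in the HC layer, by the rule given below. The shares of the marker lists were not tested against these. Sums below cover the genes of a list with a usable spot on all 4 arrays, tested or not. Of 14 tested hair cell markers, 13 were called higher in the HC layer. The summed intensity of the list was 12172 and 13112 there against 5323 and 5068 in the SC layer. Supporting cell markers were divided, with 7 of 14 tested called higher in the SC layer and 4 in the HC layer. Their summed intensity was no higher in the SC layer (24120 and 24923) than in the HC layer (25426 and 25254). A gene called higher in the SC layer is therefore not shown to be one of supporting cells. Markers of connective tissue (3 of 6 tested), endothelium and pericytes (6 of 9) and neurons (5 of 8) were called higher in the SC layer, beside 1, 1 and 3 in the HC layer. Their summed intensities were 998 to 1014, 739 to 765 and 717 to 733 on the HC layer arrays and 2337 to 2368, 1643 to 1658 and 1005 to 1053 on the SC layer arrays. The endothelial and pericyte sum covers 11 genes and leaves out Cldn5, the brightest of them, which had no usable spot on SC layer replicate 2. Cldn5 read 416 and 406 in the HC layer and 1471 on SC layer replicate 1. Schwann cell markers were called higher in the SC layer for 3 of 7 tested and in the HC layer for 2, with sums of 3067 to 3102 in the HC layer and 3633 to 3680.2 in the SC layer. Of 3 tested blood cell markers Ahsp was called, at least 7.67-fold higher in the SC layer, and the sums were 57.5 to 89.6 and 229 to 231. The part of these cells in any difference below was not tested. In captured tissue, fewer cells of a type and less RNA per cell cannot be told apart.

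Values are raw intensities quantile-normalized between the 4 arrays, on a linear scale, at the brightest probe of a gene. A probe was tested where the scanner software had called it above background on at least 2 arrays, and a change is the difference of log2 means, SC minus HC, ± its limma standard error. A gene was called at a Benjamini-Hochberg adjusted p under 0.05 over all 16483 tested probes. Of these probes 67.4% were called, 33.5% higher in the SC layer and 33.9% in the HC layer. Of the 78 genes, 36 were tested. Higher levels in the SC layer were called for 10 of them (27.8%, beside 28.2% of all 7768 tested genes) and in the HC layer for 9 (25.0%, beside 37.2%). In all 19 of 36 were called (52.8%), beside 65.4% of all tested genes. Among the 19 were Gnai1, Gnal, Pde6d, Rgs5 and Rgs10, which passed the detection filter only through the layer where they were higher. The median change of the 36 was 0.12, and that of all tested genes was -0.10. Of the 20 genes detected on all 4 arrays 13 were called, or 65.0% beside 65.7% of the 5750 genes of the array that were so detected. These differences in share were not tested. The families differed in how many members were seen at all: 38 of the 78 genes were above background on none of the arrays, including 18 of 23 phosphodiesterases, beside 31.0% of all named genes.

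**Figure D1:**
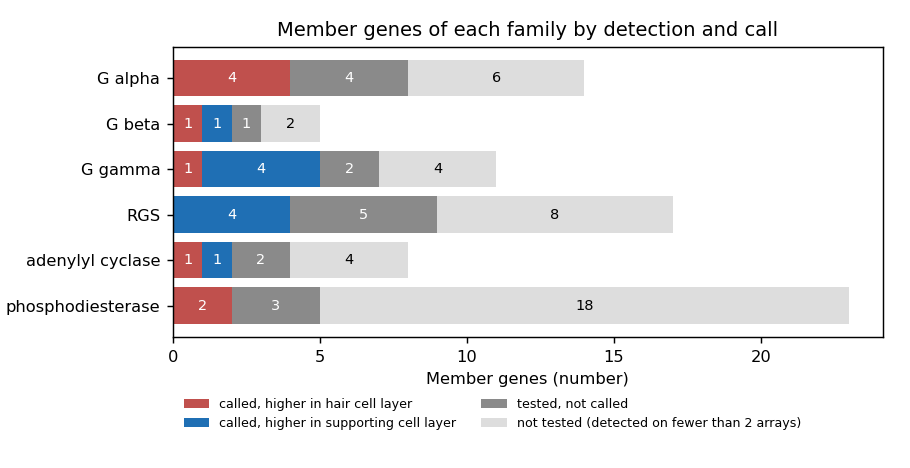
Number of member genes (horizontal axis) in each of the 6 families, divided into genes called higher in the HC layer, called higher in the SC layer, tested but not called, and not tested. Calls are at the brightest probe of a gene. The 4 called G alpha genes (50% of 8 tested) were all higher in the HC layer, as were 37.2% of all tested genes. The 4 called RGS genes (44.4% of 9 tested) were all higher in the SC layer, as were 28.2% of all tested genes. The called genes include Gnai1, Gnal, Rgs5, Rgs10 and Pde6d, which passed the detection filter only through the layer where they were higher. Of 23 phosphodiesterases, 18 were not tested. This family was taken by symbol and includes Pde6d and Pde4dip, which are binding proteins.

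Of the 14 alpha subunit genes, 8 were tested. At the brightest probe 4 were called higher in the HC layer (50%, beside 37.2% of all tested genes) and none in the SC layer (beside 28.2%). Whether these shares differ from those of all genes was not tested. Gnaz, which encodes an inhibitory alpha subunit insensitive to pertussis toxin, had intensities of 201 and 197 on the HC layer arrays and 68.8 and 69.0 on the SC layer arrays. Its change of -1.53 ± 0.07 (adjusted p = 0.00153 by limma) was the largest measured among alpha subunits detected on all 4 arrays. The layers did not overlap at this probe, but a dimmer probe of Gnaz read 51.6 and 48.7 against 58.0 and 58.0, with a change of 0.21 ± 0.07 of the opposite sign (adjusted p = 0.0796 by limma). As the mean of both probes the change of Gnaz was -0.66. Both probes were detected on all 4 arrays, so the direction given for Gnaz is that of its brighter probe. Gna12, whose product activates RhoA through exchange factors, read 545 and 580.2 in the HC layer and 290.4 and 272 in the SC layer. Its change was -1.0 ± 0.08 (adjusted p = 0.00354 by limma), and the layers stood apart. The call was lost with the scanner software's normalized values (-0.90, adjusted p = 0.105 by limma). A second Gna12 probe was above background on no array.

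Gnai1, an inhibitor of adenylyl cyclase, was detected in the HC layer alone, at 47.1 and 28.4, and read 2.64 and 1.73 in the SC layer, below background. A gene detected in 1 layer passed the detection filter through that layer alone. Its adjusted p sets that layer against spots below background and is no separate support for a difference. The fitted change of such a gene is no measure of size. Instead a nominal bound on the fold is stated, written "at least" throughout. It sets undetected spots to the lowest detected intensity of the array, or to their own reading where higher. These limits were 13.9 and 18.5 on the HC layer arrays and 26.6 and 28.3 on the SC layer arrays. Some spots above a limit were still not above background, such as Gng2 at 43.9 on SC layer replicate 1. A small bound therefore does not assure a difference. Gnai1 was called (adjusted p = 0.00417 by limma), with a nominal bound of 1.33-fold higher in the HC layer. With every value raised to the highest of these limits the difference was not called (adjusted p = 0.340 by limma). Gnal, the stimulatory alpha subunit of olfactory neurons, read 23.7 and 35.8 in the HC layer against 1.40 and 4.65, below background. It was called at an adjusted p of 0.0189 by limma, with a nominal bound of 1.06-fold. The call was lost without either HC layer array, without the filter on dim probes (adjusted p = 0.0637 by limma) and with values raised to the highest limit, where the change was -0.17 (adjusted p = 0.349 by limma). Both Gnai1 and Gnal were therefore dim genes seen near the limit of the array.

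The remaining alpha subunits gave no call. Gnas, the stimulatory subunit that activates every membrane-bound adenylyl cyclase, read 909.7 and 857 in the HC layer and 825 and 906 in the SC layer. The layers overlapped and its change was -0.03 ± 0.09 (adjusted p = 0.783 by limma), with the sign turned under median scaling. Gnai2 read 98.7 and 114 against 83.2 and 91.1, a change of -0.28 ± 0.12 that did not pass (adjusted p = 0.109 by limma). Gnai3, the inhibitory subunit most closely tied to hair bundle shape in mouse mutants, was detected on 1 array of each layer. It read 88.3 and 14.7 in the HC layer and 30.8 and 7.02 in the SC layer, and its change of -1.29 ± 1.31 was no larger than its own error. Gna15, a promiscuous partner of many receptors, read 146 and 35.7 against 32.4 and 18.5, and its change of -1.56 ± 0.85 (adjusted p = 0.186 by limma) passed only under median scaling and with the scanner software's scaling. The brain subunit Gnao1, with 3 probes, and the phospholipase C activators Gnaq and Gna11 were above background on no array, like the gustducin gene Gnat3. Gnaq read 5.36 and 4.99 in the HC layer and 1.70 and -0.805 in the SC layer, and Gna11 read 15.0 and 19.02 against 9.41 and 18.7. The rod and cone transducin genes Gnat1 and Gnat2 were each detected on 1 HC layer array.

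Of 5 beta subunit genes, 3 were tested. Gnb1, the most widely expressed beta subunit, read 1274 and 1286 in the HC layer and 988 and 985 in the SC layer, a change of -0.38 ± 0.07 (adjusted p = 0.0176 by limma). Gnb3, known from cone photoreceptors and taste cells, went the other way, with 124 and 120.4 against 180.4 and 169, a change of 0.52 ± 0.08 (adjusted p = 0.0119 by limma). Neither pair of layers overlapped, and both changes were under 2-fold. Median scaling ended both calls, with adjusted p of 0.472 for Gnb1 and 0.103 for Gnb3 by limma. Leaving out any 1 of the 4 arrays ended that of Gnb1, and either HC layer array that of Gnb3. Both calls were also lost with the scanner software's values and without the filter on dim probes, and that of Gnb1 with the replicate number as a block. Gnb5, the beta subunit that pairs with RGS proteins of the R7 group, read 202 and 167 against 139 and 157 and did not pass (-0.32 ± 0.14, adjusted p = 0.130 by limma). Gnb2 was detected on 1 array and Gnb4 on none.

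Of 11 gamma subunit genes 7 were tested. Higher levels in the SC layer were called for 4 (57.1%, beside 28.2% of all tested genes) and in the HC layer for 1 (14.3%, beside 37.2%). Gng11, a gamma subunit with a farnesyl anchor, read 244 and 242 in the HC layer and 486 and 564 in the SC layer. Its change of 1.11 ± 0.11 (adjusted p = 0.00468 by limma) was called in all 15 alternative settings. Gng7, known from striatal neurons as a partner of the olfactory alpha subunit, read 16.5 and 23.7 against 52.2 and 54.1, a change of 1.43 ± 0.21 (adjusted p = 0.0117 by limma). The layers stood apart for both genes, and the Gng7 call was lost without the filter on dim probes (adjusted p = 0.0522 by limma).

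The other called gamma genes showed smaller changes. Gng8 read 187 and 174 against 317 and 316, a change of 0.81 ± 0.08 (adjusted p = 0.00468 by limma), and is named although it was the fourth of its direction, after its values were seen. Its call was lost with the scanner software's values (adjusted p = 0.0894 by limma). Gng2 read 25.2 and 26.1 against 43.9 and 51.2, a change of 0.88 ± 0.11 (adjusted p = 0.00799 by limma), although the first of the SC layer spots was not above background. Leaving out either HC layer array ended the Gng2 call, as did the scanner software's values and a fit without the filter on dim probes. Gng10 was the gamma gene higher in the HC layer, with 289 and 302 against 233 and 225, a change of -0.37 ± 0.08 (adjusted p = 0.0235 by limma) that was lost under median scaling and without any 1 of the 4 arrays. The scanner software's values, a fit without the filter on dim probes and the replicate number as a block ended it too. Gng5 (0.30 ± 0.15) and Gngt2 (0.03 ± 0.28) did not pass. Gng13, the gustducin partner of taste cells, was above background on no array (0.987 and 10.2 against 12.2 and 26.2), nor were Gng3, Gng12 and Gngt1.

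**Figure D2:**
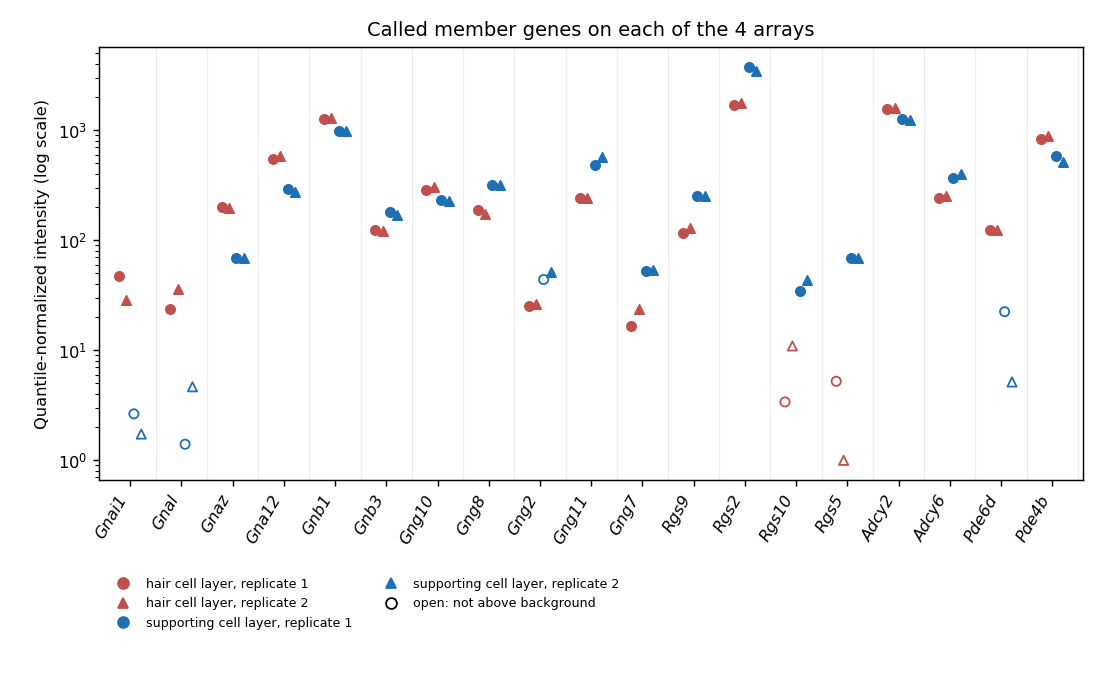
Quantile-normalized intensity (log axis) of the 19 called member genes on the 2 HC layer and 2 SC layer arrays, ordered by family and change. Open symbols are spots not above background, and values under 1 are drawn at 1. Arrays of a layer lie close together for the bright genes, such as Rgs2 at 1701 and 1770.0 against 3746 and 3465, while the widest gaps belong to genes seen in 1 layer only, such as Rgs5.

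At their brightest probes, RGS genes gave calls in the SC layer only, for 4 of 9 tested (44.4%, beside 28.2% of all tested genes). A dimmer probe of Rgs12, described below, was called higher in the HC layer. Whether the RGS share differs from that of the other families or of all genes was not tested. Rgs2, which acts mainly on the Gq alpha subunit and is induced in many cells by receptor stimulation, read 1701 and 1770.0 in the HC layer and 3746 and 3465 in the SC layer. Its change of 1.05 ± 0.08 (adjusted p = 0.00320 by limma) corresponds to 2.08-fold and was called in all 15 alternative settings. Rgs9, an R7 group member that ends the light response in photoreceptors together with Gnb5, read 116 and 128 against 251 and 253. The change was 1.05 ± 0.09 (adjusted p = 0.00356 by limma), and a second Rgs9 probe agreed in sign (0.41 ± 0.07, adjusted p = 0.0173 by limma) while the remaining one was above background on no array.

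Rgs5 and Rgs10 were detected in the SC layer alone and passed the detection filter through it, so their adjusted p is no separate support. Rgs5, a gene of pericytes and vascular smooth muscle, read 69.5 and 69.1 there and 5.22 and -4.82 in the HC layer, so it was at least 4.33-fold higher in the SC layer (adjusted p = 0.0105 by limma). Beside it, the endothelial and pericyte markers had a median change of 1.05 over 9 tested genes. Tie1 (3.54 ± 0.09) rose furthest in the SC layer and Vwf (-2.48 ± 0.16) was higher in the HC layer. The mural cell markers Pdgfrb and Acta2 were above background on no array and Cspg4 did not pass (-0.39 ± 0.23), while Kcnj8 was called higher in the SC layer (0.45 ± 0.07). Rgs10, a small RGS protein of immune cells and neurons, read 34.7 and 43.9 against 3.39 and 10.9, at least 2.44-fold higher in the SC layer (adjusted p = 0.0375 by limma). Leaving out either SC layer array ended that call, and so did raising every value to the highest detection limit, which left a change of 0.47 (adjusted p = 0.0573 by limma). The Rgs10 call was also lost without the filter on dim probes. Of 7 tested immune markers 2 were called higher in each layer. The list's summed intensity was 408 to 418 in the HC layer and 235 to 241 in the SC layer. That sum leaves out Csf1r, called higher in the SC layer, and Cd68, called higher in the HC layer. Each lacked a usable spot on 1 array. The part of these cells in the Rgs5 and Rgs10 differences was not tested.

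Rgs12, a large RGS protein with binding domains for receptors and Ras, gave different answers at its probes. The brighter read 142 and 141 in the HC layer and 175 and 164 in the SC layer, a change of 0.27 ± 0.08 that did not pass (adjusted p = 0.0516 by limma) but did under some alternative settings. The dimmer read 126 and 142 against 75.4 and 74.0, a change of -0.84 ± 0.10 that was called higher in the HC layer (adjusted p = 0.00651 by limma). Both probes were detected on all 4 arrays, so no direction can be given for the gene. Rgs14 was detected in the HC layer alone, at 36.8 and 25.8 against 29.8 and 28.8 below background, and did not pass (adjusted p = 0.777 by limma). A second Rgs14 probe was detected on HC layer replicate 1 only and not tested. It read 180 and -2.45 in the HC layer and 23.3 and 17.2 in the SC layer. Rgs4 (0.47 ± 0.29), Rgs11 (0.29 ± 0.10) and Rgs7bp (0.37 ± 0.10) did not pass either, the last with 1 HC layer array, since its spot on the other was flagged as contaminated. Rgs7 and 7 other RGS genes (Rgs1, Rgs3, Rgs6, Rgs8, Rgs17, Rgs18 and Rgs19) were above background on no array, with Rgs7 at 8.47 and 9.35 against 10.2 and 26.8. Rgs4 and Rgs5 are neighbours in the rat gene order, and Rgs4 was detected on all 4 arrays, at 24.0 and 38.7 in the HC layer and 46.0 and 38.9 in the SC layer. The layers did not overlap there, but the higher HC value and the lower SC value nearly met.

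**Figure D3:**
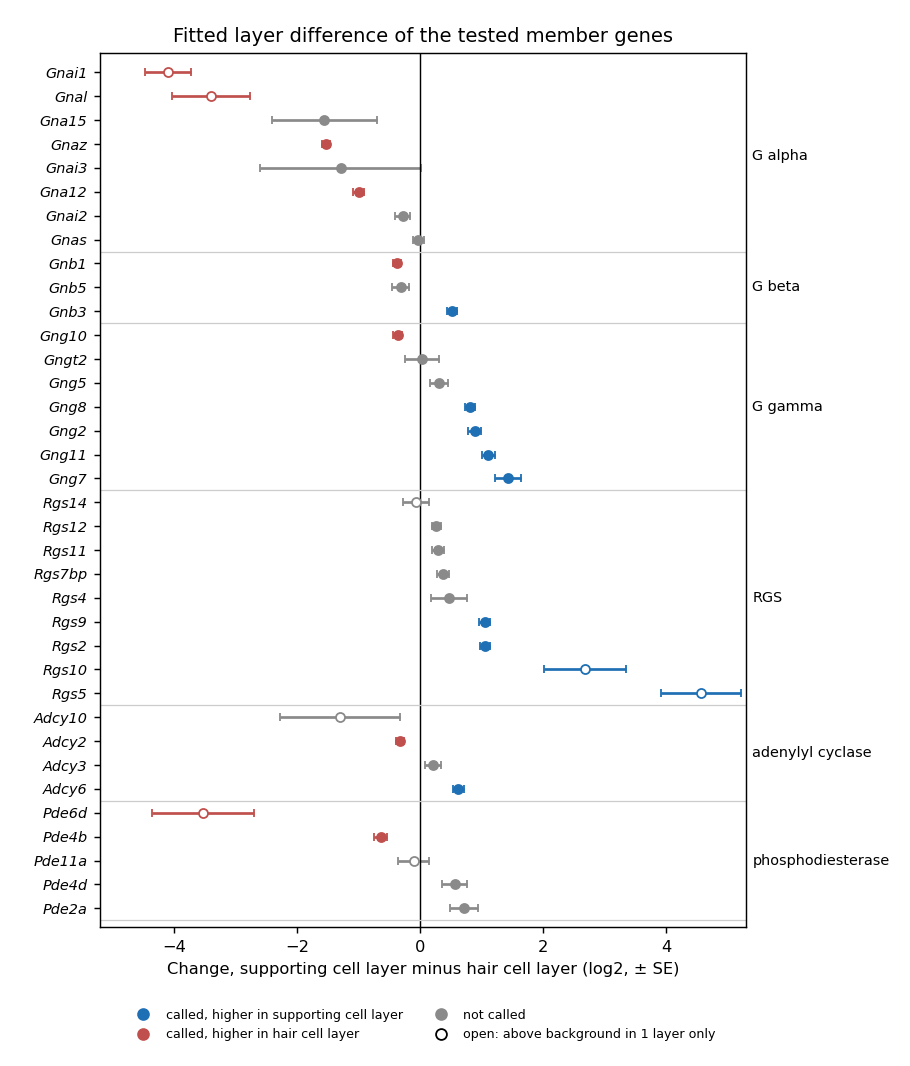
Fitted change of the 36 tested member genes, in log2 units (SC minus HC, bars 1 limma standard error), grouped by family. Colour gives the call, and open circles mark genes detected in 1 layer only, whose position is no measure of size; among filled circles the changes run from -1.56 for Gna15, which was not called, to 1.43 for Gng7.

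Among 8 adenylyl cyclase genes 4 were tested. Adcy6, a cyclase inhibited by calcium, read 241 and 252 in the HC layer and 364 and 396 in the SC layer, a change of 0.62 ± 0.09 (adjusted p = 0.00976 by limma). Adcy2, which beta-gamma dimers stimulate, went the other way, with 1539.9 and 1587 against 1250.3 and 1249, a change of -0.32 ± 0.07 (adjusted p = 0.0263 by limma). The layers did not overlap for either gene, but median scaling and leaving out either HC layer array ended both calls, and leaving out either SC layer array also ended that of Adcy2. Both calls were also lost with the scanner software's values and without the filter on dim probes, and that of Adcy2 with the replicate number as a block. A second Adcy2 probe read 2.97 to 8.39 and was above background on no array. Adcy3, the cyclase of olfactory and primary cilia, read 48.2 and 57.4 against 62.7 and 59.1 and did not pass (0.21 ± 0.12, adjusted p = 0.209 by limma). The soluble, bicarbonate-activated Adcy10 was detected in the HC layer alone and did not pass (adjusted p = 0.299 by limma). It read 17.2 and 26.8 there against 20.0 and 3.79 below background in the SC layer. Its HC layer values lay near or under the lowest intensities detected on the SC layer arrays (26.6 and 28.3), so no fold is given. Adcy5 was detected on 1 SC layer array, and Adcy4, Adcy7 and Adcy8 on none.

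Genes with a phosphodiesterase symbol were mostly not seen. Both calls among the 5 tested (40%, beside 37.2% of all tested genes) were for the HC layer, and Pde6d among them is counted by its symbol only. Pde4b, a cAMP-specific enzyme, read 834 and 881 there and 587 and 516 in the SC layer, a change of -0.64 ± 0.10 (adjusted p = 0.0138 by limma). Median scaling ended the call, as did leaving out either HC layer array. The Pde4b call was also lost with the scanner software's values, without the filter on dim probes and with the replicate number as a block. Pde6d, a prenyl-binding protein named as the delta subunit of the photoreceptor enzyme and known for carrying lipidated proteins to cilia, read 123 and 124 in the HC layer. In the SC layer it read 22.4 and 5.14, below background, so that it was at least 4.50-fold higher in the HC layer (adjusted p = 0.0322 by limma). That call was also lost without either HC layer array, without the filter on dim probes and with the replicate number as a block. Pde2a (0.72 ± 0.23, adjusted p = 0.0649) and Pde4d (30.7 and 22.5 against 42.2 and 35.6; 0.56 ± 0.21, adjusted p = 0.0903) did not pass by limma. Pde11a was detected in the HC layer alone, at 26.3 and 27.1 against 20.1 and 30.8 below background, and did not pass (adjusted p = 0.731 by limma). The catalytic photoreceptor subunits Pde6a, Pde6b and Pde6c were above background on no array. The same held for the cGMP enzymes Pde5a and Pde9a, the calcium-activated Pde1a, Pde1b and Pde1c, and Pde3a, Pde3b, Pde4a, Pde4c, Pde4dip, Pde7a, Pde7b, Pde8a, Pde8b and Pde10a. Pde1c, for example, read 2.47 to 5.46 over the 4 arrays, Pde5a 3.71 to 12.5, Pde6b 0.833 to 8.5, Pde8a 2.54 to 13.7 and Pde10a -1.52 to 15.9. For these genes no difference was detectable, which does not show that they are absent.

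Probes of the same gene often differed. Of 23 genes with several probes, 9 had none tested, 11 had 1 tested and 3 had more. In 9 of the 11, every other probe was above background on no array, and among the called genes this was so for Gnai1, Gna12, Adcy2 and Pde4b. The second probe of Gnb3 was detected on 1 HC layer array and not tested; it read 15.3 and 5.39 there against -0.153 and 2.13, not in the direction of the call. The Pde4b probe that gave the call, at 516 to 881, stood beside one that read -1.89 to 15.5. The bright probes of Gna12 and Pde4b carry accessions other than a RefSeq mRNA in the scanner files, whereas their undetected probes carry one. The same holds for Rgs9, whose detected probes carry other accessions and whose undetected probe carries a RefSeq mRNA. The called probe of Gnb3 also carries another accession, and its second probe a RefSeq mRNA. For Adcy2 both probes carry a RefSeq mRNA accession. What separates the probes was not tested. Where a gene had 1 tested probe, its change rests on that probe.

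**Figure D4:**
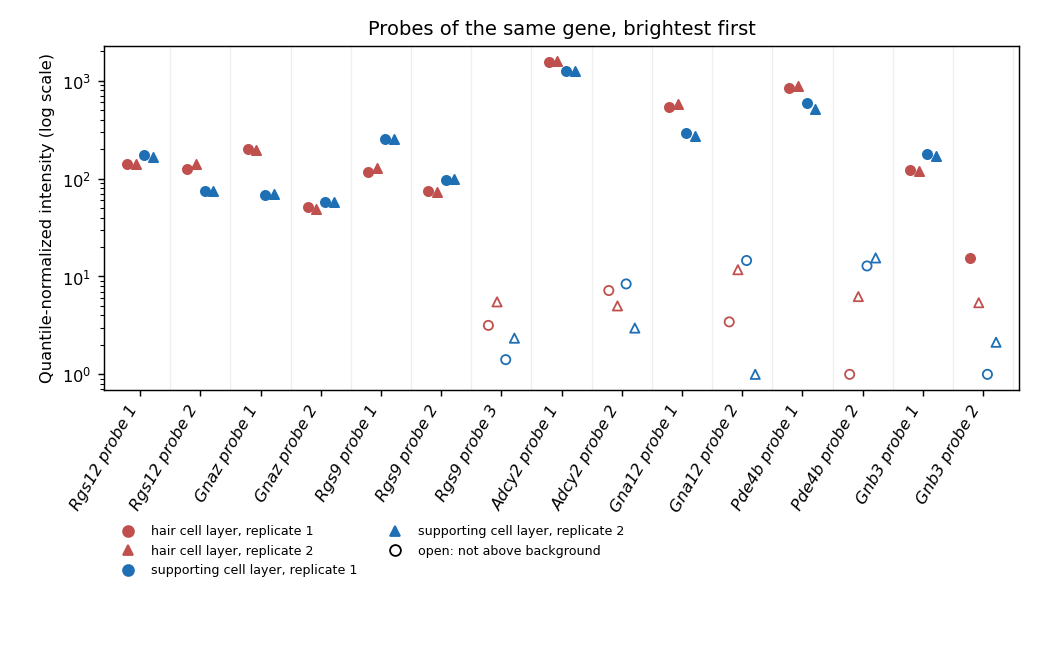
Quantile-normalized intensity (log axis) of each probe of 7 genes on the 4 arrays, brightest probe first; open symbols are spots not above background and values under 1 are drawn at 1. The probes of Rgs12 and of Gnaz were all detected but have opposite directions, those of Rgs9 share a direction where detected, and the second probes of Adcy2, Gna12 and Pde4b lie near background.

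Sequences upstream of the gene start are shown for 6 of the called genes, 2 higher in the HC layer and 4 in the SC layer, as examples of what precedes them. They are the 150 bases before the start of the gene in RefSeq (build GRCr8), on the gene's strand. Capitals mark matches, on either strand, to the cAMP response element TGACGTCA, its core TGACG (which the full element contains), the GC box GGGCGG, the CCAAT box and the TATA box TATAAA. The first pair was higher in the HC layer, Gna12 (chr12:18919479-18919628, plus strand) and Gnai1 (chr4:17705911-17706060, plus strand), and the others were higher in the SC layer, Rgs2 (chr13:58352667-58352816, minus strand), Rgs9 (chr10:94770388-94770537, minus strand), Rgs5 (chr13:84380927-84381076, plus strand) and Gng11 (chr4:32977531-32977680, plus strand).
Gna12: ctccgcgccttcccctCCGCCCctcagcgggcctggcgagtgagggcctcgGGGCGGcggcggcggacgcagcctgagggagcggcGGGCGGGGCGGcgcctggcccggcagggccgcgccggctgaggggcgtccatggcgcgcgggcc
Gnai1: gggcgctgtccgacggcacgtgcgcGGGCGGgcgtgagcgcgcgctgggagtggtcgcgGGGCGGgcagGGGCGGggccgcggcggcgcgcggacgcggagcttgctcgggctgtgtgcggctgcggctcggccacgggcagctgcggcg
Rgs2: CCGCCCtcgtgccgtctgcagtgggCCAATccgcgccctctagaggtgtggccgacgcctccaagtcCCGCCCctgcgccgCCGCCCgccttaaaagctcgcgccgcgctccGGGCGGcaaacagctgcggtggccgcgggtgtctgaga
Rgs9: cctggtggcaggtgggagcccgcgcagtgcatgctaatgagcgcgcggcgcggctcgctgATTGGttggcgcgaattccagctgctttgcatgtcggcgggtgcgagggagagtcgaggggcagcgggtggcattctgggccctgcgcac
Rgs5: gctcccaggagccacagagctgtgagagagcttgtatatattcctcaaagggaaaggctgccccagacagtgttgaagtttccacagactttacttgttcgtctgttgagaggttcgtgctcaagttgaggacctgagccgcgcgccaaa
Gng11: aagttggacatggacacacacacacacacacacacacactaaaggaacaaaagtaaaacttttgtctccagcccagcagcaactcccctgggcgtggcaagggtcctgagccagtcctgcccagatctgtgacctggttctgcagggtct

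The stretches of Gna12 and Gnai1 were 84.7% and 83.3% G and C, with 4 and 3 GC boxes. Those of Rgs2 and Rgs9 were 73.3% and 68.7%, and those of Rgs5 and Gng11 were 52.0% and 53.3% with no match to any of the motifs. Other called genes went the other way: Gnb1 (49.3%) and Gnal (66.0%), higher in the HC layer, had no match, and Rgs10 (79.3%), higher in the SC layer, had 2 GC boxes. Over the 250 bases before the start, 58 of the 78 genes had an entry. A GC box stood in 28 of these 58 (48.3%), beside 40.3% of 19005 protein-coding genes, in 4 of 7 called genes higher in the SC layer and in 5 of 7 higher in the HC layer. The full cAMP response element stood in 1 of the 58, Gnao1 (1.72%, beside 2.03% of all genes), and its core in 12 (20.7%, beside 21.1%), Rgs2 being the called gene among them. A CCAAT box stood in 11 (18.97%, beside 35.5%) and a TATA box in 6 (10.3%, beside 12.3%). A match is a description of letters and no evidence of a working site.

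Other genes of these pathways were described by lists made of known components. The counts of every list stand beside 28.2% of all tested genes called higher in the SC layer and 37.2% in the HC layer. With so few genes tested in a list, its share was not tested against these. Of 13 G protein cofactors and exchange factors outside the set, 9 had a named probe and 7 were tested, with 5 called higher in the HC layer and none in the SC layer. Insc, an adaptor that links inhibitory alpha subunits to polarity proteins, read 431 and 441 in the HC layer and 102 and 116 in the SC layer, a change of -2.0 ± 0.10 (adjusted p = 0.00165 by limma). The related modulator Gpsm1 (-0.86 ± 0.09) and the chaperone of stimulatory alpha subunits Ric8b (at least 2.34-fold) were called in the same direction. Gpsm2, the partner of Gnai3 at the hair bundle, was detected on 1 HC layer array, at 54.6, and not tested. Gpr158, an orphan receptor that binds RGS7, read 733 and 737 in the HC layer against -2.96 and 5.08, at least 26.8-fold higher there (adjusted p = 0.00321 by limma), while Rgs7 itself was not above background.

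Receptor kinases and arrestins were measured for all 10 listed genes, of which 4 were tested. Grk6 (0.70 ± 0.11) and Grk4 (0.35 ± 0.07) were called higher in the SC layer and Grk2 (-0.48 ± 0.07) in the HC layer, and both beta-arrestin genes, Arrb1 and Arrb2, were above background on no array. Among cAMP effectors 7 of 14 with a named probe were tested. The regulatory subunit gene of protein kinase A, Prkar1a (0.59 ± 0.08), and the kinase inhibitor gene Pkig (0.32 ± 0.07) were called higher in the SC layer. The inhibitor gene Pkia went the other way, with 192 and 123 in the HC layer against 55.2 and 48.5 (-1.57 ± 0.27, adjusted p = 0.0158 by limma). Of 10 tested A-kinase anchoring proteins, 5 were called higher in the SC layer, such as Akap10 (0.95 ± 0.08) and Akap8 (0.64 ± 0.08), and 2 in the HC layer, such as Akap9 (-1.21 ± 0.07).

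The genes for the soluble guanylyl cyclase, which makes cGMP in response to nitric oxide, were called in opposite directions. Its alpha subunit gene Gucy1a1 read 8.73 and 10.3 in the HC layer, below background, and 126 and 134 in the SC layer, at least 8.14-fold higher there (adjusted p = 0.00120 by limma). Its beta subunit gene Gucy1b1 was detected in the HC layer alone, at 18.6 and 23.0, under the lowest intensity detected on the SC layer arrays, so no fold is given although it was called (adjusted p = 0.00917 by limma). Of the 6 tested genes of the cGMP list, Cngb1 was also called higher in the SC layer, and the natriuretic peptide receptor gene Npr2 (-0.75 ± 0.11), in the HC layer. Of 6 tested genes acting after the Gq alpha subunit, 3 were called higher in the SC layer, with the phospholipase C genes Plcb3 (1.71 ± 0.07) and Plcb4 (0.53 ± 0.10). The calcium release channel gene Itpr2 read 163 and 169 in the HC layer against 18.3 and 3.93, below background, and was at least 6.04-fold higher in the HC layer (adjusted p = 0.0228 by limma). The lists had median changes of -0.86 (cofactors), 0.23 (kinases and arrestins), -0.19 (cAMP effectors), 0.29 (anchoring proteins), 0.11 (cGMP) and 0.50 (Gq effectors), beside -0.10 for all tested genes.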

How the data were processed

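Per the labels' protocols, polyadenylated RNA of each captured layer was amplified linearly into labelled cRNA; per the file headers, the software for slides of 1 array each was CodeLink Expression Analysis, version 4.0.0.23520. The deposited scanner files give per spot a raw intensity, already corrected for background (some values are below 0), and a normalized intensity that is relative to the median of its array. The authors' deposited series table holds the same normalized intensity. Its column for supporting cell layer replicate 2 was shifted by 2 rows (3 of 35125 rows equal as aligned, within 1e-06) and was not used. The table served to carry platform gene names to the scanner rows by the values of the 3 other columns. Entrez identifiers gave current symbols (GRCr8 RefSeq table): 16717 probes were named so and 194 through a RefSeq accession.

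Spots flagged contaminated, irregular or masked were left out and saturated spots kept. Raw intensities were quantile-normalized, raised to a floor of 0.1 of the median and taken to log2 values (R 4.3.3, limma 3.58.1, lmFit and eBayes without trend, two-sided). The prior had 1.31 degrees of freedom. On simulated arrays of 16484 probes with 200 changed, 64.0% of changes of 2 log2 units and 58.0% of 1 were called, with 13 false calls. The simulation changed a far smaller share of probes than the 67.4% called here. It also took the spread of both layers from the SC layer arrays. Its rates are therefore no measure of recovery or false calls in the real fit. The gene of several probes took its brightest tested probe. Precision is limited by the number of arrays. The genes and lists were chosen with earlier results of these data known. Genes given with the value on each array were the 3 largest called changes per family and direction plus well studied members; from each list, the largest called change in each direction and the brightest gene. Members and list genes beyond these were named to account for every member or as known partners, after values were seen.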

Additional observations from a re-analysis of the deposited data

How the results depend on the processing

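Of 15 alternative settings, 1 was chosen after seeing the data (probes with a RefSeq mRNA accession only). Gnaz, Rgs2 and Gng11 were called in the same direction in all 15 (Gnaz at -0.66 as the mean of its probes), and Rgs9 and Rgs5 in the 14 that tested them. Apart from that mean, every setting used the brighter Gnaz probe. The tally therefore does not bear on the dimmer Gnaz probe, which had the opposite sign. Rgs5 was detected in the SC layer alone, so its calls set that layer against spots below background. The setting with RefSeq mRNA probes only did not test Rgs9, whose RefSeq mRNA probe was above background on no array. The 10 genes called higher in the supporting cell layer became 6 with the scanner software's normalized values and 5 with RefSeq mRNA probes, which tested 21 genes. The 9 called higher in the hair cell layer became 4 without the filter on dim probes, 3 with RefSeq mRNA probes and 5 with the replicate number as a block. Leaving out 1 array gave 7 to 9 and 3 to 7 genes; the lowest, 3, came without either hair cell layer array, and fewer samples entered those fits. The 11112 called probes of the array became 6871 with the scanner's values and 6654 without the filter, and 7182 to 10009 with 1 array left out, the lowest without hair cell layer replicate 1. Of the 19 called genes, 8 kept their call without the filter, 10 with the scanner's values and 16 with values raised to the highest detection limit. Elsewhere the counts stayed within 1.5 times; the cause was not tested. The median change of all tested genes moved from -0.10 to 0.02 with the scanner's values. Changes reversed for genes that were not called: Gnas to 0.046 with median scaling, 0.080 with the scanner's values and -0.098 to 0.038 with 1 array left out, Gnai3 to 0.0020 without hair cell layer replicate 1 (from -2.58 to 0.0020 with 1 array left out), and Rgs12 to -0.29 (adjusted p = 0.0450 by limma) as the mean of its probes. The labels do not say whether same-numbered arrays were paired. Deviations of same-numbered arrays had a correlation of -0.0022 over probes, which with 2 arrays a layer cannot decide it. The block ended the calls of Adcy2, Gnb1, Pde4b, Gng10 and Pde6d and called Gnai3 (adjusted p = 0.0309 by limma). Background correction by normexp and a scan batch as a block could not be run, as the files used here hold no such columns and each slide held 1 array. Signal over background limits the 42 genes that were not tested.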
